A study of Mus musculus with 6 samples.

Results

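Integrin subunit genes were followed in group 1 innate lymphoid cells (ILC1s) of mouse liver, the tissue-resident lymphocytes that make interferon-gamma without a rearranged antigen receptor. The members were 10 genes chosen by name: the alpha subunits Itga1, Itga2, Itga4, Itgae, Itgal, Itgam and Itgax and the beta subunits Itgb1, Itgb2 and Itgb7. All 10 were found among the 23942 genes of the table. Memory ILC1s (3 libraries) carry the treatment label OXA and day 30, and naive ILC1s (3 libraries) carry the label solvent and day 0. All 6 libraries were labelled as liver lymphocytes. OXA is not spelled out, and the sources used here do not give strain, age, sex, cell sort or the number of animals behind a library. Treatment and day differ together, so effects of the 2 cannot be told apart.

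An integrin is a pair of 1 alpha and 1 beta chain that holds a cell to a matrix or to another cell. Chains leave the endoplasmic reticulum only as pairs, so a beta chain is shared by the alpha chains it binds. The beta chain of Itgb2 is confined to leukocytes and pairs with the products of Itgal (the receptor LFA-1, for ICAM adhesion molecules), Itgam (CD11b, of Mac-1) and Itgax (CD11c). The product of Itgb1 pairs with those of Itga1 (CD49a, a collagen receptor), Itga2 (CD49b, another collagen receptor) and Itga4 (CD49d, for VCAM-1 and fibronectin), and that of Itgb7 with those of Itga4 (gut homing) and Itgae (CD103, for E-cadherin). In mouse liver, CD49a is the usual mark of ILC1s and CD49b that of conventional natural killer (NK) cells.

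Values are RPKM, a gene's reads divided by the library's total and by exon length, so levels of different genes may be compared. Whole reads could be recovered from the values, and the libraries held 18697093 to 23795266 reads. "Called" means a limma adjusted p (Benjamini-Hochberg over all 13793 genes that averaged 0.5 RPKM or more in the 6 libraries) below 0.05. A log2 change is the memory mean minus the naive mean of log2(RPKM + 1), so changes of low genes come out too small. The labels do not say whether replicates were separate animals, so p-values measure spread that may be technical. The 10 listed markers of ILC1s summed to 1037 to 1079 RPKM in memory and 1025 to 1075 in naive libraries. Most of that was Ncr1 (505 RPKM in memory and 488 RPKM in naive libraries) and Klrb1c (131 RPKM in memory and 133 RPKM in naive libraries). Eomes, which NK cells need, averaged 1.19 RPKM in memory and 0.81 RPKM in naive libraries. These values do not measure how pure the cells were.

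Itgam was higher in memory ILC1s in every library, and Itga4 was modestly higher. Of the 9 members that passed the filter on low values, these 2 rose, none fell and 7 were not called. Among all genes tested, 4.17% were called, 3.2% as higher and 0.972% as lower in memory. The median log2 change was -0.02 over the 9 members and 0.02 over all genes tested. Groups did not overlap in 3 members, Itgam, Itga4 and Itgb7, and in 24.1% of all genes tested. The LFA-1 genes Itgal and Itgb2, the most abundant members, had 95% intervals of the log2 change between -0.10 and 0.07. In bulk RNA, fewer cells of a type and less RNA per cell cannot be told apart.

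**Figure D1:**
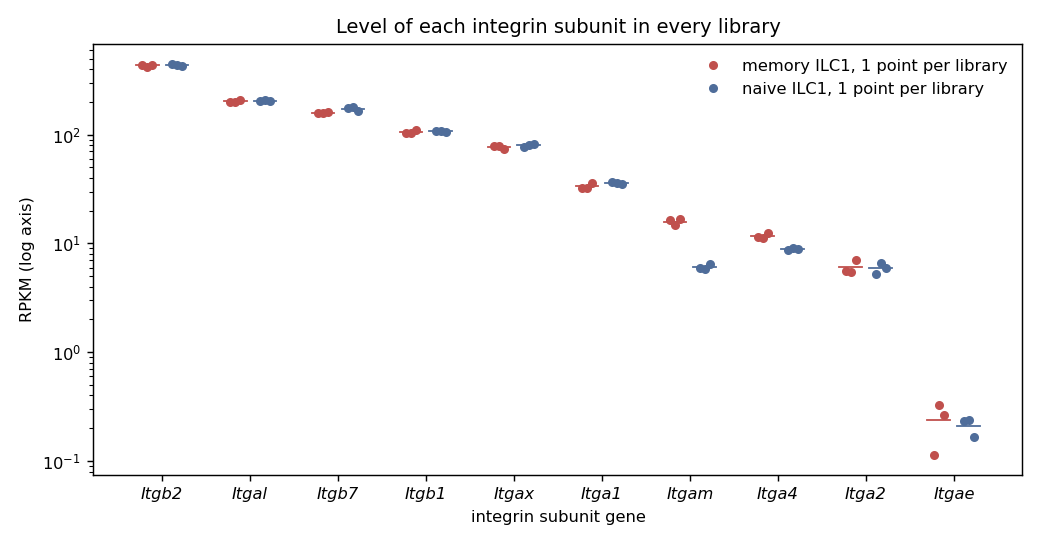
RPKM on a log axis of the 10 integrin subunit genes in each library, memory left of naive, ordered by mean level, with 1 point per library and a line at the group mean. Itgam and Itga4 are the genes whose memory points all lie above their naive points, and Itgb7 the one whose memory points all lie below.

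Mean levels ran from 433 RPKM in memory and 439 RPKM in naive libraries for Itgb2 to 0.236 RPKM in memory and 0.212 RPKM in naive libraries for Itgae. Their order was Itgb2, Itgal, Itgb7, Itgb1, Itgax, Itga1, Itgam, Itga4, Itga2 and Itgae by the mean over the 6 libraries. In 8 of the 9 neighbouring pairs of that order, the lowest library of the higher gene lay above the highest library of the lower gene. The exception was Itgam and Itga4, whose RPKM ranges overlapped because Itgam was below Itga4 in naive and above it in memory libraries.

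The shared beta chains were not called. Itgb2 stood at 436, 421 and 440 RPKM in memory libraries, against 450, 438 and 428 RPKM in naive libraries. The groups overlapped, and the log2 change was -0.02 (95% interval -0.10 to 0.06, limma adjusted p = 0.82). Itgb1 stood at 104, 104 and 110 RPKM in memory libraries, against 109, 107 and 106 RPKM in naive libraries. These also overlapped (log2 change -0.02, interval -0.10 to 0.06, limma adjusted p = 0.823). Itgb7 stood at 160, 158 and 160 RPKM in memory libraries, against 174, 180 and 166 RPKM in naive libraries. Every memory library was below every naive library, but the log2 change of -0.12 (SE 0.04, interval -0.21 to -0.03) was not called (limma adjusted p = 0.152). It passed the threshold only in limma's voom on the recovered reads (adjusted p = 0.0474), and its adjusted p reached 0.34 over the alternatives.

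Itgam, the alpha chain of Mac-1, which binds ICAM-1, fibrinogen and the complement fragment iC3b, changed most among the members. It stood at 16.3, 14.6 and 16.7 RPKM in memory libraries, against 5.90, 5.76 and 6.52 RPKM in naive libraries. The lowest memory library had more than the highest naive library, with 2112 to 2218 reads in memory and 704 to 879 in naive. The means were 15.9 ± 1.10 RPKM in memory and 6.06 ± 0.41 RPKM in naive libraries (SD, n = 3 each), a ratio of 2.62. The log2 change was 1.26 (SE 0.07, interval 1.08 to 1.43, limma adjusted p = 0.000241). The call held whichever of the 6 libraries was left out, with adjusted p up to 0.00288, and over all alternatives adjusted p was at most 0.00386.

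**Figure D2:**
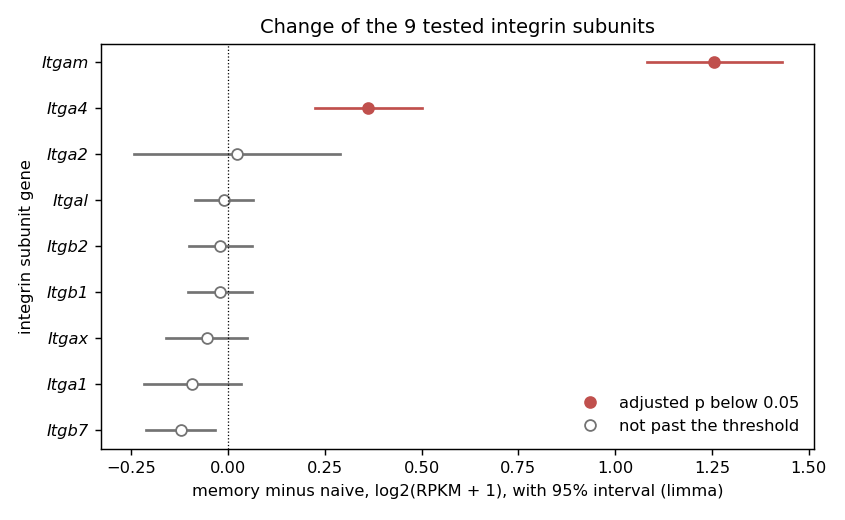
Memory minus naive log2(RPKM + 1) of the 9 tested integrin subunits, with 95% intervals from limma; filled points are past the adjusted threshold. Itgam (1.26) and Itga4 (0.36) lie right of 0, and the other 7 lie between -0.12 and 0.02.

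Monocytes and macrophages carry CD11b as well, and their markers moved with Itgam. Against 3.2% called higher among all genes tested, 12 of 17 tested members of the macrophage and monocyte list (70.6%) rose and none fell. That count was 7 without memory replicate 1, 2 or 3 and with the filter of 2 RPKM, 8 with the replicate number as a block, with no filter or without naive replicate 2 or 3, and 10 without naive replicate 1. The list of 18 summed to 567 to 596 RPKM in memory libraries, against 118 to 124 RPKM in naive libraries. Lyz2, the lysozyme of myeloid cells, averaged 448 ± 14.1 RPKM in memory and 37.8 ± 4.52 RPKM in naive libraries, and Csf1r, the receptor for the macrophage growth factor, 11.1 ± 0.93 RPKM in memory and 1.42 ± 0.32 RPKM in naive libraries (SD, n = 3 each; limma adjusted p = 6.94e-06 and 0.000108). The most abundant member after Lyz2, Ccr2, averaged 67.9 RPKM in memory and 66.2 RPKM in naive libraries and was not called. No gene of the list was at 0 reads in all libraries. Conventional NK cells also carry CD11b. Their list holds Itgam itself and shares Ly6c2 with the macrophage and monocyte list. Of its 8 tested members, Itgam, Zeb2, S1pr5 and Ly6c2 rose (50%, against 3.2% of all genes tested) and none fell. Itga2 (log2 change 0.02), Klrg1 (0.07), Klra8 (-0.24) and Eomes (0.28) were not called. With 1 library left out, S1pr5 kept its call only without naive replicate 1 or 3. Ly6c2 kept its call only without naive replicate 1. With the replicate block, S1pr5 and Ly6c2 both lost the call (limma adjusted p = 0.0549 and 0.0903). The 10 genes summed to 32.3 to 37.2 RPKM in memory and 19.2 to 20.6 RPKM in naive libraries. Of these sums, Itgam made up 15.9 RPKM in memory and 6.06 RPKM in naive libraries on average. Zeb2, a factor of terminal NK maturation that myeloid cells also express, averaged 2.31 RPKM in memory and 0.54 RPKM in naive libraries. The part of these cells in the rise of Itgam was not tested.

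Itgam lies beside its relatives in the genome. On mouse chromosome 7 (mm10, plus strand), it spans 128062640 to 128128160, and Itgax (128129547 to 128150657) begins 1.4 kb after its end. Itgad, the alpha chain of a further Itgb2 pair, follows after another 3.7 kb, at 128154376 to 128223816, and Itgal lies upstream at 127296260 to 127335138. Itgad averaged 8.81 ± 0.19 RPKM in memory and 9.12 ± 0.50 RPKM in naive libraries (SD, n = 3 each; log2 change -0.04, limma adjusted p = 0.767). Of these 4 neighbours, Itgam was the one called. The table also lists a gene named RP23-144N15.3 on the same strand, which shares 347 of the 6377 exon bases of Itgam. It stood at 13.6, 23.1 and 20.9 RPKM in memory libraries, against 17.6, 15.4 and 13.5 RPKM in naive libraries, and the groups overlapped. The sources used here do not say how reads in the shared bases were counted.

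Because adjacent genes differed in their change, the 250 bases before the start of Itgam and of Itgax are shown, together with those of Itga4, the other called member. They come from RefSeq (GRCm38.p6), run 5′ to 3′ on the plus strand, and cover chr7:128062390-128062639, chr7:128129300-128129549 and chr2:79255176-79255425. The window of Itgax runs slightly past the start that the table gives, 128129547. Capitals mark GAGGAA, the core bound by the myeloid and lymphoid factor PU.1, or its reverse complement TTCCTC.
Itgam: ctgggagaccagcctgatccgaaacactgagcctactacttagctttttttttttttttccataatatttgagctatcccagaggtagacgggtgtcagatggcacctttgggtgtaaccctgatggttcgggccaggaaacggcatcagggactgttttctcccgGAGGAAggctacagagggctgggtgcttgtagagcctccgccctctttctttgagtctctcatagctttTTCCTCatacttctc
Itgax: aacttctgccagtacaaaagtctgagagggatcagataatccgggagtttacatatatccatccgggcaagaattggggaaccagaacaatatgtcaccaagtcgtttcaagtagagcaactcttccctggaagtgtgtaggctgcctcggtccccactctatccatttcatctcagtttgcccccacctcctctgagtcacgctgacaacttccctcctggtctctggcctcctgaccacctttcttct
Itga4: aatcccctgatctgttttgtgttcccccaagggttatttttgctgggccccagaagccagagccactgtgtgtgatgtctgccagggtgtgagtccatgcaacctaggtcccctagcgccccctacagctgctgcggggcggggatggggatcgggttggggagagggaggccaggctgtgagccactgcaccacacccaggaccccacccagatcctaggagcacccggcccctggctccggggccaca
The window of Itgam held 2 matches, the first of them on the gene's strand from 84 to 79 bases before the start and the other, as the reverse complement, from 15 to 10 bases before it. The windows of Itgax and Itga4 held none. Of 7 members with a RefSeq window, Itgam and Itgb1 had a match, and 23.3% of all 32851 windows did. A search on both strands for AGGTCA, a site that the nuclear receptor of the study's title and many related receptors can bind, found none in the 7 windows, against 14.0% of all windows. The RUNX core TGTGGT was found once, in the window of Itga4 as its reverse complement ACCACA, 60 to 55 bases before the start, against 14.0% of all windows. None of these matches overlapped another, and a match of letters does not show that a factor was bound.

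The other members that pair with Itgb2 were abundant and were not called. Itgal, whose product lets lymphocytes adhere to ICAM-1, stood at 201, 201 and 208 RPKM in memory libraries, against 203, 209 and 202 RPKM in naive libraries. The log2 change was -0.01 (interval -0.08 to 0.07, limma adjusted p = 0.917). Itgax, best known from dendritic cells and also present on liver ILC1s and NK cells, stood at 77.9, 78.7 and 73.9 RPKM in memory libraries, against 76.4, 81.0 and 82.2 RPKM in naive libraries. Its groups overlapped (log2 change -0.05, interval -0.16 to 0.05, limma adjusted p = 0.586). Dendritic cells are rich in CD11c. Of 10 genes listed for them, MHC class II genes included, 8 were tested. Of these 8, 6 were called higher (75%, against 3.2% of all genes tested) and none lower. The 10 summed to 333 to 336 RPKM in memory and 48.0 to 52.8 RPKM in naive libraries. Most of that was Cd74, H2-Ab1 and H2-Eb1, which were called, as was H2-Aa. Cd74 averaged 122 RPKM in memory and 19.6 RPKM in naive libraries, and H2-Ab1 134 RPKM in memory and 20.2 RPKM in naive libraries. The other calls were Cd209a (2.55 RPKM in memory and 0.19 RPKM in naive libraries) and Siglech (1.08 and 0.08 RPKM). Both passed the filter through the memory libraries alone, and Siglech lost its call with the replicate block (limma adjusted p = 0.0774). Xcr1 (1.42 RPKM in each group, log2 change -0.01) and Zbtb46 (limma adjusted p = 0.115) were not called. Flt3 (0.49 RPKM in memory and 0 RPKM in naive libraries) and Clec9a (0.21 and 0 RPKM) were under the filter and not tested.

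Shares were taken among the members alone, so Itgad and the further alpha chains that bind Itgb1 are outside the sums. Within the Itgb2 group, the share of Itgam in the summed RPKM of Itgal, Itgam and Itgax was 5.52%, 4.96% and 5.59% in memory libraries, against 2.07%, 1.95% and 2.24% in naive libraries. The lowest memory share was above the highest naive share. Itgal nevertheless held most of the sum, with 68.7% ± 0.86 in memory and 70.4% ± 0.86 in naive libraries, and Itgax held 26.0% ± 1.06 in memory and 27.5% ± 0.76 in naive libraries (SD, n = 3 each). The exact two-sided permutation p was 0.10 for Itgam, the smallest that 3 against 3 libraries allow, 0.10 for Itgax and 0.20 for Itgal (0.20, 0.20 and 0.32 after adjustment over 8 shares). For Itgax the highest memory share, 26.73%, lay just under the lowest naive share, 26.74%. The log2 ratio of these 3 summed alphas to Itgb2 averaged -0.55 ± 0.03 in memory and -0.59 ± 0.06 in naive libraries (exact permutation p = 0.30, n = 3 each, 0.60 after adjustment over 3 ratios).

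**Figure D3:**
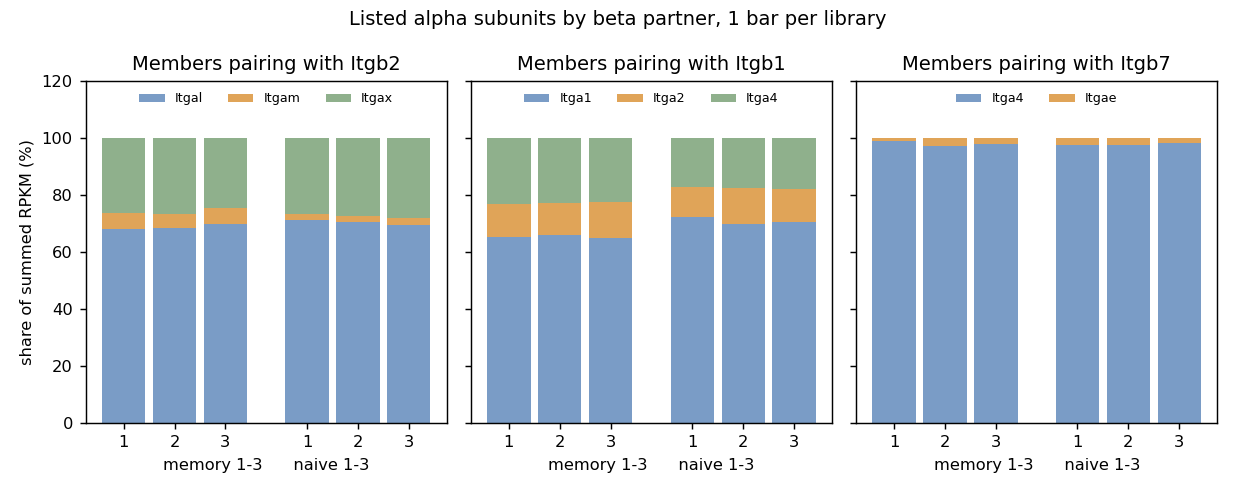
Share in percent of the summed RPKM of the listed alpha subunits, grouped by the beta chain they bind: Itgal, Itgam and Itgax for Itgb2, Itga1, Itga2 and Itga4 for Itgb1, and Itga4 and Itgae for Itgb7, with 1 bar per library and memory libraries left of naive libraries. The Itgam segment is 4.96% to 5.59% in memory and 1.95% to 2.24% in naive libraries, and the Itga4 segment of the Itgb1 group is 22.5% to 23.3% in memory and 17.4% to 17.9% in naive libraries.

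Itga4, whose chain takes lymphocytes to VCAM-1 on inflamed vessels, was the second call. It stood at 11.4, 11.3 and 12.5 RPKM in memory libraries, against 8.75, 8.99 and 8.96 RPKM in naive libraries. The groups did not overlap, and 3399 to 3744 reads in memory and 2287 to 2647 in naive libraries lay behind these values. The means were 11.7 ± 0.68 RPKM in memory and 8.90 ± 0.13 RPKM in naive libraries (SD, n = 3 each), a ratio of 1.32, and the log2 change was 0.36 (SE 0.06, interval 0.22 to 0.50, limma adjusted p = 0.020). This call rested on all 6 libraries: without any 1 of them, memory or naive, the change was 0.32 to 0.39 and the adjusted p 0.0599 to 0.0755. With the replicate number as a block the adjusted p was 0.0825, and with voom on the recovered reads 3.92e-06. Itga4 lies on chromosome 2 (79255426 to 79333123, plus strand), and 1124 of its 13978 exon bases also belong to Cerkl on the opposite strand. Cerkl stood at 3.42, 4.22 and 3.77 RPKM in memory libraries, against 3.77, 2.69 and 3.21 RPKM in naive libraries. The library kit marks strand, but the sources used here do not say whether reads were counted by strand.

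The collagen-binding members that pair with Itgb1 were not called. Itga1, the CD49a gene, stood at 32.1, 32.6 and 36.1 RPKM in memory libraries, against 36.3, 35.8 and 35.3 RPKM in naive libraries. Memory replicate 3 lay within the naive range, and the log2 change was -0.09 (interval -0.22 to 0.03, limma adjusted p = 0.431). Itga2, the CD49b gene, stood at 5.58, 5.50 and 7.03 RPKM in memory libraries, against 5.28, 6.58 and 5.88 RPKM in naive libraries. On the log2 scale its change had the largest SE of the 9 tested members, 0.11, and was 0.02 (interval -0.24 to 0.29, limma adjusted p = 0.946). Its sign turned under both other scalings (-0.02 with quantile normalization and -0.0018 with median ratio scaling). Per exon length, Itga1 was the higher of the collagen receptor genes in all 6 libraries. They are neighbours on chromosome 13 (minus strand), Itga2 at 114835916 to 114932041 and Itga1 26.0 kb beyond it at 114958079 to 115101964. Pelo lies within Itga1 on the same strand and shares none of its exon bases.

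Among Itga1, Itga2 and Itga4, the share of Itga4 was 23.3%, 22.8% and 22.5% in memory libraries, against 17.4%, 17.5% and 17.9% in naive libraries. That of Itga1 was 65.3%, 66.0% and 64.8% in memory libraries, against 72.1%, 69.7% and 70.4% in naive libraries. Neither set overlapped, and each reached the smallest exact permutation p of 0.10 (0.20 after adjustment, n = 3 each). Itga2 held 11.7% ± 0.80 in memory and 11.7% ± 1.17 in naive libraries (exact permutation p = 1.0, n = 3 each). The log2 ratio of these 3 summed alphas to Itgb1 averaged -1.05 ± 0.06 in memory and -1.09 ± 0.02 in naive libraries (exact permutation p = 0.40, n = 3 each, 0.60 after adjustment).

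Itgae, the CD103 gene of mucosal resident lymphocytes, was very low in both groups. It stood at 0.113, 0.330 and 0.264 RPKM in memory libraries, against 0.234, 0.236 and 0.165 RPKM in naive libraries. These values rest on 11, 36 and 24 reads in memory and 20, 22 and 16 reads in naive libraries. The groups overlapped, and the gene was under the filter of 0.5 RPKM, so it was the 1 member of 10 without a test. In the fit with no filter its log2 change was 0.02 (SE 0.08, limma adjusted p = 0.909). Among the partners of Itgb7, Itga4 held 98.0% ± 0.94 in memory and 97.7% ± 0.44 in naive libraries, and Itgae the remainder (exact permutation p = 0.70, n = 3 each, 0.80 after adjustment over 8 shares). The log2 ratio of Itgae to Itgb7 averaged -9.54 ± 0.82 in memory and -9.70 ± 0.24 in naive libraries (exact permutation p = 0.80, n = 3 each).

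The genes nearest to the 2 called members in pattern were found by the root mean square difference of mean-centred log2(RPKM + 1) over the 6 libraries. For Itgam they were Pilrb2 (0.0726), Ppfia4 (0.0803) and Pira2 (0.0809). Pilrb2 averaged 3.01 RPKM in memory and 0.71 RPKM in naive libraries, Ppfia4 1.40 RPKM in memory and 0.09 RPKM in naive libraries, and Pira2 1.35 RPKM in memory and 0.08 RPKM in naive libraries. All 3 were called, but picking them for likeness to a called gene favoured that. Ppfia4 and Pira2 passed the filter through the memory libraries alone. The ratios of mean RPKM were 4.26, 14.8 and 17.5, against 2.62 for Itgam, so the likeness holds on log2(RPKM + 1) only. Pira2 and Pilrb2 have close relatives that could share reads. For Itga4 they were 9330175E14Rik (0.0209), P2rx4 (0.0230) and Baz2b (0.0309), of which Baz2b, at 10.2 RPKM in memory and 7.47 RPKM in naive libraries, was called; that call was lost without any 1 library but naive replicate 3 (adjusted p up to 0.073) and with the replicate block (0.0629).

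The remaining integrin subunits had 1 call. Of 17 listed, 14 were in the table and 7 were tested, with a median log2 change of 0.05. The call was 14.3% of those tested, against 3.2% called higher among all genes tested. Itgb5, whose chain pairs with the alpha-v chain to bind vitronectin, stood at 1.76, 1.91 and 1.98 RPKM in memory libraries, against 0.64, 1.05 and 0.56 RPKM in naive libraries. The groups did not overlap (log2 change 0.73, SE 0.13, limma adjusted p = 0.0323), but leaving out naive replicate 1 or 3 or any memory library ended the call, with adjusted p up to 0.124. The call was also lost with the replicate block (adjusted p = 0.097), with no filter (0.0698) and with quantile normalization (0.0556). Itgb3, the most abundant of the 7, averaged 22.7 ± 0.35 RPKM in memory and 21.6 ± 1.51 RPKM in naive libraries and was not called (limma adjusted p = 0.611).

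Among genes that switch integrins on or tie them to the cytoskeleton, Fyb, Syk and Skap2 rose. These were 3 of 30 tested in a list of 34, or 10% against 3.2% of all genes tested. None fell and 27 were not called, with a median log2 change of -0.02. Fyb, the adaptor ADAP that links antigen and NK receptors to integrin activation, stood at 91.6, 87.4 and 91.2 RPKM in memory libraries, against 68.4, 69.8 and 74.1 RPKM in naive libraries. Its log2 change was 0.34 (SE 0.04, limma adjusted p = 0.00686), and it was called in each fit that left out a library. Syk, a kinase downstream of ITAM receptors and integrins, averaged 14.0 RPKM in memory and 10.9 RPKM in naive libraries, and Skap2, an adaptor that binds ADAP in myeloid cells, 5.997 RPKM in memory and 4.64 RPKM in naive libraries (limma adjusted p = 0.016 and 0.043). The call of Skap2 was lost without any 1 library, and that of Syk without any but naive replicate 2 (adjusted p up to 0.15 and 0.0794). With the replicate block both calls were lost (adjusted p = 0.155 for Skap2 and 0.0764 for Syk), and that of Skap2 also with no filter (0.0563), quantile normalization (0.0695) and median ratio scaling (0.0556). Talin, which opens the integrin head from the inside, and the small GTPase Rap1b that recruits it are encoded by the most abundant genes of the list. Tln1 averaged 152 ± 3.89 RPKM in memory and 154 ± 5.28 RPKM in naive libraries, and Rap1b 155 ± 3.85 RPKM in memory and 149 ± 10.2 RPKM in naive libraries (SD, n = 3 each; limma adjusted p = 0.848 and 0.59).

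**Figure D4:**
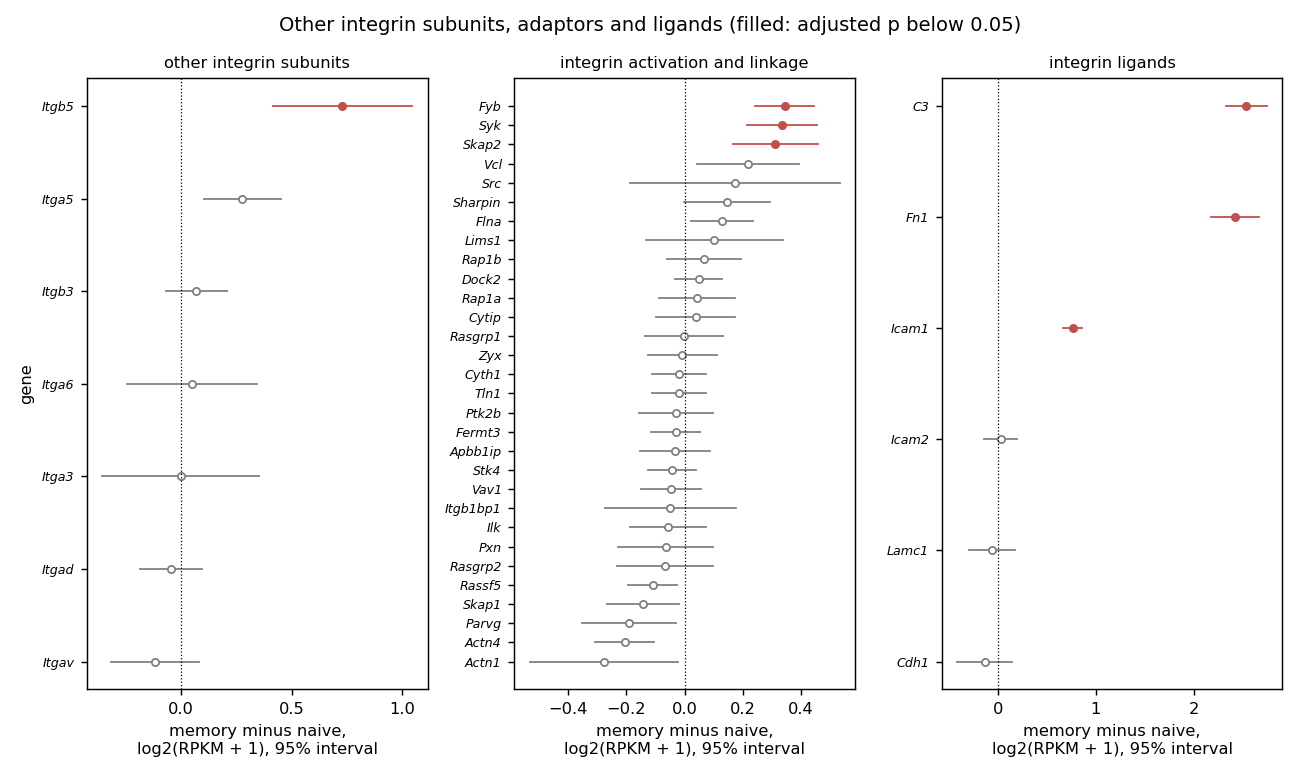
Memory minus naive log2(RPKM + 1) with 95% intervals from limma for the tested genes of 3 lists: other integrin subunits, integrin activation and linkage, and integrin ligands (each panel has its own axis). Filled points are past the adjusted threshold; they are Itgb5 (0.73), Fyb, Syk and Skap2 (0.31 to 0.34), and C3, Fn1 and Icam1 (0.76 to 2.53).

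Of 26 ligand genes listed, 6 passed the filter. Of these 6, 3 rose (50%, against 3.2% of all genes tested) and none fell. Their median log2 change was 0.40, against 0.02 over all genes tested. Icam1, the ligand of LFA-1 and Mac-1, stood at 61.7, 62.0 and 60.4 RPKM in memory libraries, against 35.5, 34.7 and 37.2 RPKM in naive libraries. The groups were far apart (log2 change 0.76, SE 0.04, limma adjusted p = 0.000133). Fn1, which encodes fibronectin, bound by the pair of the Itga4 and Itgb1 chains, averaged 10.3 ± 0.55 RPKM in memory and 1.12 ± 0.24 RPKM in naive libraries. C3, the source of the complement fragment that Mac-1 binds, averaged 10.7 ± 0.80 RPKM in memory and 1.02 ± 0.13 RPKM in naive libraries (SD, n = 3 each; limma adjusted p = 5.48e-05 and 2.29e-05). All 3 were called in each fit that left out a library. Icam2, a further ligand of LFA-1, averaged 14.2 RPKM in memory and 13.9 RPKM in naive libraries and was not called. The gene of VCAM-1, the vascular ligand of the Itga4 chain, was under the filter at 0.0949 RPKM in memory and 0.0428 RPKM in naive libraries. Macrophages express Icam1, Fn1 and C3, and the macrophage and monocyte list, at 567 to 596 RPKM in memory and 118 to 124 RPKM in naive libraries, moved with them; its part in these rises was not tested. The hepatocyte list had 3 of 7 tested members higher (42.9%, against 3.2% of all genes tested) and none lower. All 7 changes were positive, but Apoa1 and Ttr passed the filter of 0.5 RPKM through the memory libraries, which favoured a positive change. They averaged 1.32 and 0.69 RPKM in memory and 0.46 and 0.36 RPKM in naive libraries. The list summed to 179 to 203 RPKM in memory and 63.6 to 68.3 RPKM in naive libraries. Most of that was Apoe, at 154 RPKM in memory and 39.8 RPKM in naive libraries. Which cells the Apoe RNA came from was not tested. Hp averaged 5.79 RPKM in memory and 0.69 RPKM in naive libraries. Alb averaged 3.86 RPKM in memory and 1.40 RPKM in naive libraries, and its call was lost without any 1 library but naive replicate 3. Trf (23.2 RPKM in memory and 21.8 RPKM in naive libraries), Apoa1, Serpina1a and Ttr were not called. Cyp3a11 was under the filter, at 0.06 RPKM in memory and 0.07 RPKM in naive libraries.

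Platelet and B cell genes were low in both groups. The 5 platelet genes in the table, Itga2b among them, were all under the filter and summed to 0.47 to 0.96 RPKM in memory and 0.21 to 0.72 RPKM in naive libraries. The 2 B cell genes summed to 0.69 to 1.35 RPKM in memory and 0.71 to 1.45 RPKM in naive libraries, with Cd79b not called. Of the 5 neutrophil and mast cell genes in the table, Csf3r alone was tested, and it was called higher. It averaged 1.55 RPKM in memory and 0.17 RPKM in naive libraries, so it passed the filter through the memory libraries alone. S100a8, S100a9, Mpo and Cpa3 were under the filter. S100a8 and Mpo had 0 reads in every memory library. Of 10 liver endothelial and stellate cell genes, Pecam1 was tested and not called (18.6 RPKM in memory and 14.9 RPKM in naive libraries, limma adjusted p = 0.0682). The T cell list summed to 200.2 to 219.6 RPKM in memory and 215.0 to 249.7 RPKM in naive libraries. Most of that was Trbc1 (174 RPKM in memory and 192 RPKM in naive libraries), which was not called. Of the 6 tested genes, Lat (13.8 RPKM in memory and 17.6 RPKM in naive libraries) and Cd3g (16.4 RPKM in memory and 20.8 RPKM in naive libraries) fell. Among all genes tested, 0.972% were called lower. Trac (0.79 RPKM in memory and 1.40 RPKM in naive libraries), Cd3d (0.80 and 0.65 RPKM) and Cd4 (1.84 and 1.60 RPKM) were not called. Cd8a, Cd8b1 and Cd5 were under the filter. In the ILC1 list, Cxcr6 (48.0 RPKM in memory and 58.8 RPKM in naive libraries) was the 1 call of 10, and it fell. The call of Lat was lost without memory replicate 2, and that of Cd3g without any 1 library but naive replicate 3. That of Cxcr6 was lost without memory replicate 1 or 3 or naive replicate 1 or 2. For Lat, Cd3g and Cxcr6, adjusted p without 1 library was up to 0.0541, 0.0778 and 0.0657. With the replicate block all 3 calls were lost (adjusted p = 0.0712, 0.0552 and 0.0526).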

How the data were processed

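RNA was measured by bulk sequencing in 3 memory and 3 naive ILC1 libraries. Per the labels' protocols, TRIzol was used for extraction and a stranded mRNA kit for the libraries. The authors deposited 1 table of RPKM with exon coordinates and lengths per gene. Per the submitters' processing notes, the build was mm10 and the tools were edgeR 3.12.1, Subread 1.5.1, featureCounts and STAR 2.5.3a, with no role given for each. Values times exon length in kilobases summed to 1000000 in every library.

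Dividing by the step per read gave whole reads for 100.0% of values (within 0.001 read). Of counts of 1 to 10 reads, 69.8% to 72.3% were even, which is seen when the 2 mates of a pair count as separate reads. Limma-trend (limma 3.58.1, R 4.3.3) was run with no block on log2(RPKM + 1), for the genes averaging 0.5 RPKM or more. It was tested on simulated data. Permutation tests used scipy 1.17.1. No 2 libraries agreed within counting noise (chi-square per gene at least 4.93).

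The members and gene lists were chosen with earlier results of these data known. Named besides the 10 members were, per pathway list, up to 4 called genes with the smallest adjusted p and the 2 most abundant, per marker list up to 2 called and the 2 most abundant, and the 3 genes nearest in pattern to each called member. S1pr5, Ly6c2, Eomes, Klrg1, Klra8, Itga2b, the VCAM-1 gene, the overlapping genes and Itga9 were chosen after their values were seen. So were Alb, Apoa1, Serpina1a, Ttr, Cyp3a11, S100a8, S100a9, Mpo, Cpa3, Trac, Cd3d, Cd4, Cd8a, Cd8b1 and Cd5. The same holds for H2-Aa, H2-Eb1, Siglech, Cd209a, Xcr1, Zbtb46, Flt3 and Clec9a. Alternatives were pseudocounts of 0.1 and 0.5, a filter of 2 RPKM or none, quantile and median ratio scaling, the replicate number as a block, and each library left out. Voom on the recovered reads was added after seeing the data. Promoter sequences are from RefSeq (GRCm38.p6), with 7 of 10 members matched.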

Additional observations from a re-analysis of the deposited data

How the results depend on the processing

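Itgam kept its call and direction under every alternative run, with log2 changes of 1.22 to 1.38. The count of called genes over the table was 575, 271 with the replicate block, 1141 with voom and 270 to 388 without 1 library. Of the members, 2 were called, 1 with the replicate block and 1 in each fit without 1 library. Itga4 kept a change of 0.36 with the replicate block but lost its call (adjusted p = 0.0825), and its change was 0.32 to 0.39 without 1 library. Itgb7 gained a call with voom (-0.12). Itga2 changed sign with quantile normalization (-0.0159) and median ratio scaling (-0.0018), and ran from -0.0751 to 0.0916 without 1 library. Itgal (0.0583) and Itgb2 (0.0112) turned positive with quantile normalization, and Itgal ran from -0.0256 to 0.0047 without 1 library. None of these 3 was called under any alternative. Of genes outside the members, Icam2 (-0.0018), Klrb1c (0.0161) and Tln1 (0.0058) changed sign with quantile normalization, and without 1 library Icam2 ran from -0.0102 to 0.0921 and Cd79b from -0.2038 to 0.0785; none was called. The causes were not tested.

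Among other integrin subunits the count of calls was 1, and 0 with no filter, the filter of 2 RPKM (which removes Itgb5), quantile normalization and the replicate block, and 0 to 1 without 1 library. For activation and linkage genes it was 3, 1 with the replicate block, 6 with voom and 1 to 2 without 1 library. The ligand count stayed at 3 in all 6 fits without 1 library. The difference in share of Itga2 among the 3 members that pair with Itgb1 turned to -0.35 points on reads not divided by exon length and ran from -0.55 to 0.61 without 1 library. The differences for Itga4 and Itgae among the partners of Itgb7 ran from -0.13 to 0.80 and from -0.80 to 0.13, and the log2 ratio of Itgae to Itgb7 from -0.16 to 0.63.

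The values gave no sign that replicate numbers pair the libraries: same-numbered libraries had deviations correlated at -0.084, -0.0395 and -0.003. With 3 libraries per group, this cannot show that the libraries were unpaired. The exact test within pairs cannot go below 0.25. The planned edgeR and DESeq2 fits on the recovered reads were not run, and limma's voom on those reads took their place. Itgae rested on 11 to 36 reads per library, and what difference that depth could show was not tested.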

Other observations

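A further integrin gene lay just under the filter. Itga9, whose chain pairs with that of Itgb1 and binds several matrix proteins, averaged 0.44 RPKM in memory and 0.24 RPKM in naive libraries (n = 3 each). Its groups did not overlap, and it was not tested.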
